A study of Mus musculus with 16 samples.

Results

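The 10 genes described here encode the lipases that break down stored triglyceride in fat cells, the proteins that switch the first of these lipases on or off, and the proteins that coat or fuse lipid droplets. They are *Pnpla2*, *Lipe*, *Mgll*, *Abhd5*, *G0s2*, *Plin1*, *Plin2*, *Plin4*, *Plin5* and *Cidec*. They were chosen by name for these known roles, and all 10 were found by symbol among the 54347 genes listed and were above the filter on low counts. The cells were differentiated wt1-SAM brown adipocytes, an immortalized mouse line that stably expresses the CRISPRa SAM machinery, in which a guide RNA brings transcriptional activators to a chosen gene. There were 4 groups of 4 libraries, numbered as replicates 3, 4, 5 and 6: empty vector control (empty_ctrl), empty vector with isoproterenol (empty_iso), *Gm15551* sgRNA control (sgRNA_ctrl) and *Gm15551* sgRNA with isoproterenol (sgRNA_iso). Isoproterenol, a β-adrenergic agonist, was given at 1 µM for 24 h before harvest on day 7 of differentiation. The plasmids, 250 ng per well, were introduced on day 4, and the activated gene *Gm15551* is a long noncoding RNA. In the sgRNA groups 2 different sgRNA plasmids were transfected together. All 4 groups carried the SAM system and were transfected. All were also differentiated with 0.5 µM rosiglitazone, an agonist of PPARγ. Insulin, an antilipolytic hormone, was given at 850 nM at induction and in the next medium, and the methods do not list it for later media. IBMX, a phosphodiesterase inhibitor, was given at 500 µM at induction, with triiodothyronine, dexamethasone and indomethacin. The sources used here do not say whether the replicates were separate differentiations, so the p-values measure the spread between these 16 cultures or libraries only.

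In fat cells, triglyceride is hydrolysed in sequence by ATGL (encoded by *Pnpla2*), hormone-sensitive lipase (*Lipe*) and monoacylglycerol lipase (*Mgll*). ATGL is activated by ABHD5 and inhibited by G0S2. At rest perilipin 1 holds ABHD5 at the droplet surface. A β-adrenergic signal acts through cAMP and protein kinase A, which phosphorylates perilipin 1 and hormone-sensitive lipase and so frees ABHD5 and lets the lipases reach the droplet. In brown adipocytes the fatty acids that are released fuel the mitochondria and activate UCP1. This acute control works on proteins, whereas the values here are RNA levels 24 h after the agonist was added.

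The libraries held between 9053521 and 16546187 counts. A ribosomal RNA gene, *CT010467.1*, took 29.0% ± 12.8 (SD, n = 4) of them in empty_ctrl, 36.8% ± 12.8 in empty_iso, 19.1% ± 1.11 in sgRNA_ctrl and 21.1% ± 7.18 in sgRNA_iso, so this share was not equal between the plasmids. It was higher under isoproterenol in 4 of 4 empty vector pairs and in 2 of 4 sgRNA pairs. The activated gene had 0 to 18 counts in the 8 empty vector libraries and 13 to 56 counts in the 8 sgRNA libraries. Levels are given as CPM, counts scaled to a common library size with TMM factors. Mean levels of the activated gene were 0.952 CPM in empty_ctrl, 0.147 in empty_iso, 2.97 in sgRNA_ctrl and 1.56 in sgRNA_iso. Its range in sgRNA_iso (1.04 to 2.04 CPM) overlapped that in empty_ctrl (0.39 to 1.35 CPM). Of the members, 9 had at least 582 counts in every library, whereas *Plin5* had only 27 to 163 counts and is therefore the least precise.

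As a check of the label, 9 of 10 adipocyte markers could be tested, and their summed level lay between 12779 and 27079 CPM in all libraries. Most of this sum was *Fabp4*, with group means of 12136 to 16133 CPM, followed by *Lpl* with 3778 to 4119 CPM. The brown marker *Ucp1* was at 0 to 0.722 CPM in empty_ctrl and at 4.37 to 10.0 CPM in empty_iso, and *Dio2* had at most 1 count in any library. Of the other 7 brown markers, *Elovl3* had group means of 236 to 316 CPM, *Ppargc1a* of 37.9 to 68.8 CPM, *Ebf2* of 12.5 to 18.1 CPM and *Ppara* of 10.5 to 14.1 CPM, whereas *Prdm16*, *Cox8b* and *Cox7a1* had at most 29 counts in any library. Macrophage genes were nearly absent: *Adgre1* had at most 1 count and *Ptprc* at most 2, and only *Cd68* of the 7 markers had enough counts for a test.

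With isoproterenol, RNA of 5 members fell when replicate numbers were left out of the fit. With libraries compared within a replicate number, RNA of 7 fell and of 2 rose. The 5 that fell in both encode the lipases ATGL and hormone-sensitive lipase, the co-activator ABHD5, the inhibitor G0S2 and the droplet fusion protein CIDEC. Each was lower by 27% to 38% when the numbers were left out. Averaged over both plasmids, 5 of 10 members passed the test as lower and 0 as higher (quasi-likelihood test of edgeR, p adjusted by Benjamini-Hochberg over 13150 genes, threshold 0.05). Of all genes tested, 4.49% were called, 2.43% as lower and 2.06% as higher. The median log2 fold change over the 10 members was −0.49, against 0.0047 over all genes tested. With the replicate number as a block, which compares libraries of the same number, 7 members fell and 2 rose, against 10.4% and 10.9% of all genes (21.3% in all). The blocked test added *Plin1* and *Mgll* to those that fell, and *Plin2* and *Plin5* to those that rose. *Plin4* passed in neither. The ribosomal RNA share moved with isoproterenol in empty vector cells, and its part in these results was not tested. These are bulk libraries, in which fewer cells with a given RNA and less of that RNA per cell cannot be told apart.

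**Figure D1:**
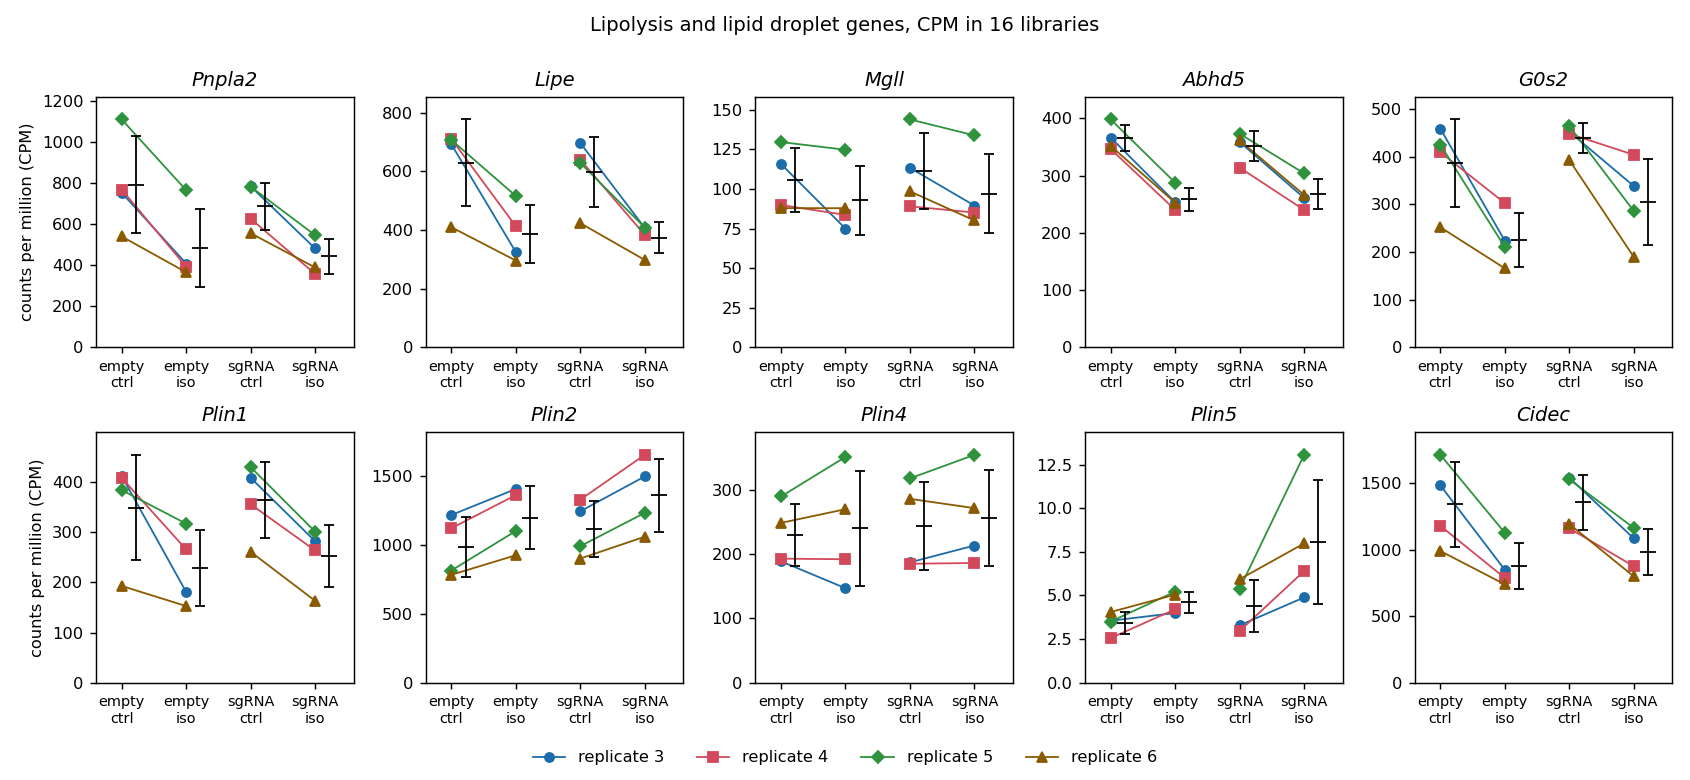
CPM (linear axis from 0) of each of the 10 genes in the 16 libraries. Coloured points joined by a line are the control and stimulated library of the same plasmid and replicate number, and black bars give the group mean ± SD (n = 4). For 7 genes all 8 lines run down from control to isoproterenol, for *Plin2* and *Plin5* all 8 run up, and for *Plin4* 5 run up and 3 down. How often this was so over all genes is not given here.

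*Pnpla2* (ENSMUSG00000025509, chromosome 7:141455198–141460743 of GRCm38, plus strand) encodes ATGL, which removes the first fatty acid from triglyceride. In empty_ctrl it was at 754, 769, 1111 and 541 CPM in replicates 3, 4, 5 and 6, and in empty_iso at 409, 393, 766 and 366 CPM. In sgRNA_ctrl the same replicates gave 785, 628, 784 and 557 CPM, and in sgRNA_iso 482, 358, 547 and 389 CPM. Stimulated libraries lay below all control libraries in sgRNA cells, whereas in empty vector cells stimulated replicate 5 reached into the control range. The log2 fold change averaged over plasmids was −0.67 (SE 0.18), a fall of 37.3%, with an adjusted p of 0.0386 (edgeR quasi-likelihood, Benjamini-Hochberg). The level was lower in 8 of 8 pairs, with stimulated to control ratios from 0.511 to 0.700. The share of all genes with such pair counts is not given, so those here and below describe single genes only.

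*Lipe* (ENSMUSG00000003123, chromosome 7:25379527–25398710, minus strand) encodes hormone-sensitive lipase, which acts on diacylglycerol. Its levels were 692, 710.3, 707 and 409 CPM in empty_ctrl replicates 3 to 6 and 325, 413, 516 and 296 CPM in empty_iso. They were 696, 640, 628 and 423 CPM in sgRNA_ctrl and 407, 383, 408 and 298 CPM in sgRNA_iso. Again the groups were apart in sgRNA cells and met in empty vector cells, where control replicate 6 was low. The averaged log2 fold change was −0.69 (SE 0.15, edgeR adjusted p 0.0139), and the level was lower in 8 of 8 pairs. An antisense gene, *4732471J01Rik*, overlaps 7 exons of *Lipe*, and since the use of read strand is not stated, reads of this pair cannot be told apart.

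*Mgll* (ENSMUSG00000033174, chromosome 6:88724412–88828360, plus strand), the lipase of the last step, differed less. It ranged from 75.0 to 144 CPM over all libraries, and the ranges of control and stimulated groups overlapped within both plasmids. Its log2 fold change was −0.19 (SE 0.14, edgeR adjusted p 0.540). In the blocked fit it was −0.20 (SE 0.062, adjusted p 0.0329), which passed, but it was lost when any replicate number was left out. With libraries or a replicate number left out, the log2 fold change ran from −0.29 to −0.10 over both kinds of fit. All 8 pairs were lower under isoproterenol, but the ratios ran from 0.647 up to 0.999. The antisense gene *Gm26588* overlaps 6 of its exons.

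*Abhd5* (ENSMUSG00000032540, chromosome 9:122351608–122381524, plus strand), which encodes the activator of ATGL, had the smallest standard error of the 10 genes. In empty_ctrl replicates 3 to 6 stood at 367, 347, 398 and 352 CPM, and in empty_iso at 254, 240.2, 288 and 253 CPM. The sgRNA_ctrl values were 359, 314, 373 and 362 CPM and the sgRNA_iso values 261, 240.2, 304 and 266 CPM. It was the only member whose stimulated libraries lay below all control libraries with both plasmids. Lower, non-overlapping stimulated groups were seen for 2.14% of all genes in empty vector cells and for 3.60% in sgRNA cells, where *Pnpla2* and *Lipe* were also such genes. Higher, non-overlapping groups were seen for 1.94% and 3.63% of all genes and for 0 members. The averaged log2 fold change was −0.45 (SE 0.069), a fall of 26.7% (edgeR adjusted p 0.0013). One exon is overlapped by an antisense gene, *A730085K08Rik*.

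*G0s2* (ENSMUSG00000009633, chromosome 1:193272161–193273217, minus strand), which encodes the inhibitor of ATGL, fell together with its target. Its levels in replicates 3 to 6 were 459, 409, 425 and 252 CPM in empty_ctrl and 223, 302, 210.2 and 166 CPM in empty_iso. In sgRNA cells they were 452, 448, 464 and 393 CPM in control and 338, 404, 286 and 190 CPM after stimulation. The groups overlapped in both plasmids, through the low control replicate 6 in empty vector cells and the high stimulated replicate 4 in sgRNA cells. The averaged log2 fold change was −0.65 (SE 0.16, edgeR adjusted p 0.0288), and all 8 pairs were lower, with ratios from 0.483 to 0.902.

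The perilipins, the coat proteins of the droplet, did not move as a family. *Plin1* (ENSMUSG00000030546, chromosome 7:79720218–79732903, minus strand), the perilipin of mature adipocytes that holds ABHD5, was at 412, 408, 384 and 193 CPM in empty_ctrl and at 181, 266, 317 and 153 CPM in empty_iso. It was at 408, 355, 430 and 261 CPM in sgRNA_ctrl and at 282, 263, 301 and 163 CPM in sgRNA_iso. Each stimulated library was below its paired control, but replicate 6 was low in every group, so that the groups overlapped. Without the block the log2 fold change of −0.57 (SE 0.19) missed the threshold (edgeR adjusted p 0.114), whereas with the block it was −0.57 (SE 0.086) and passed (adjusted p 0.00022). Without replicate 6 of empty_ctrl, *Plin1* passed also in the fit without the block (log2 fold change −0.67, adjusted p 0.0306), as it did without the filter on low counts (−0.60, adjusted p 0.0399).

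*Plin2* (ENSMUSG00000028494, chromosome 4:86648386–86670060, minus strand) encodes the perilipin that most cell types place on their droplets. It went the other way. In empty_ctrl it was at 1216, 1120.2, 814 and 783 CPM and in empty_iso at 1405, 1361, 1101 and 924 CPM. In sgRNA_ctrl it was at 1243, 1328, 990.2 and 901 CPM and in sgRNA_iso at 1496, 1653, 1232 and 1059 CPM. Replicates 3 and 4 were above replicates 5 and 6 in all 4 groups, and the step from control to isoproterenol was smaller than this distance. It was seen in 8 of 8 pairs, with ratios of 1.15 to 1.35. The log2 fold change was 0.29 in both fits, with SE 0.14 and an edgeR adjusted p of 0.294 without the block and SE 0.048 and an adjusted p of 0.00049 with it.

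*Plin5* (ENSMUSG00000011305, chromosome 17:56111601–56117596, minus strand), a perilipin of oxidative tissues that links droplets to mitochondria, was the lowest member. Replicates 3 to 6 gave 3.55, 2.56, 3.51 and 4.05 CPM in empty_ctrl and 3.99, 4.21, 5.22 and 5.05 CPM in empty_iso. With the sgRNA they gave 3.29, 2.97, 5.39 and 5.93 CPM in control and 4.89, 6.39, 13.1 and 7.98 CPM after stimulation. Every pair was higher under isoproterenol, and stimulated sgRNA replicate 5 stood far above the rest. The averaged log2 fold change was 0.66 (SE 0.21, edgeR adjusted p 0.0878), and with the block 0.64 (SE 0.14, adjusted p 0.0042), a rise of 55.9%. DESeq2 gave 0.66 with an adjusted p of 0.0429. Without replicate 5 the blocked value was 0.54 (adjusted p 0.0245), and without replicate 4 it was 0.55 and missed the threshold (adjusted p 0.0510).

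*Plin4* (ENSMUSG00000002831, chromosome 17:56100591–56109803, minus strand), the adipocyte perilipin whose gene lies next to *Plin5*, ranged from 147 to 354 CPM. Replicates 5 and 6 were above 3 and 4 in each group, and control and stimulated groups overlapped. The log2 fold change was 0.067 (95% interval −0.34 to 0.47, edgeR adjusted p 0.907), and 0.043 (−0.094 to 0.18, adjusted p 0.690) with the block. Of 8 pairs, 5 were higher and 3 lower. One of its exons is overlapped by *Hdgfl2* on the other strand.

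*Cidec* (ENSMUSG00000030278, chromosome 6:113424634–113435760, minus strand), whose product drives the fusion of droplets to a single large one, was the most abundant member per kb of exon in control cells. It was at 1483, 1179, 1712 and 989.7 CPM in empty_ctrl replicates 3 to 6 and at 848, 787, 1126 and 739 CPM in empty_iso. The values were 1541, 1160.2, 1528 and 1193 CPM in sgRNA_ctrl and 1084, 875, 1163 and 799 CPM in sgRNA_iso. Overlap came from stimulated replicate 5 in empty vector cells and, by a few CPM, from stimulated replicate 5 and control replicate 4 in sgRNA cells. The averaged log2 fold change was −0.54 (SE 0.13, edgeR adjusted p 0.0299), and 8 of 8 pairs were lower.

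Of these calls, those of *Lipe* and *Abhd5* held in the fit without the block when any 1 of the 16 libraries was left out, while *Pnpla2* passed in 4, *G0s2* in 7 and *Cidec* in 7 of the 16 cases. The number of members called fell to 2 without replicate 3 or 5 of empty_ctrl, without replicate 3 or 6 of empty_iso, or without replicate 3 or 5 of sgRNA_ctrl. It fell to 3 without replicate 4 of any of the 4 groups or without replicate 6 of sgRNA_iso. Without all 4 libraries of replicate 3 it was 0 (smallest adjusted p 0.0502, for *Abhd5*), and without those of replicate 4 it was 2. Calls over all genes fell as well, from 590 of 13150 to 137 of 13336 without replicate 3 and 197 of 13253 without replicate 4. With 1 library left out they numbered 368 to 864. With the block the number of members called was 7 or 8 in each of the 4 fits that left out 1 replicate number. *Mgll* was lost in all 4 and *Plin5* without replicate 4. Over all genes these blocked fits called 1782 of 13336, 1915 of 13253, 2120 of 13228 and 1996 of 13030 without replicates 3, 4, 5 and 6.

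Within each plasmid, the question was whether the response was also seen in either set of 8 libraries. In empty vector cells, *Abhd5* alone passed without the block (log2 fold change −0.50, SE 0.098, edgeR adjusted p 0.0202), against 0.913% of all genes called, 0.433% as lower and 0.479% as higher. With the block 6 members fell (background 5.07%) and *Plin2* rose (background 4.50%, and 9.57% in both directions). In sgRNA cells 0 members passed without the block in edgeR, where 0.722% of all genes did (0.319% lower and 0.403% higher), with 6 members and 1112 of 13150 genes at an unadjusted p under 0.05. DESeq2 called 1 member there and 222 of the 34821 genes with any count. With the block 6 fell (background 4.12%), and *Plin2* and *Plin5* rose (background 4.28%, and 8.40% in both directions). The members that fell were the same in both plasmids, namely *Pnpla2*, *Lipe*, *Abhd5*, *G0s2*, *Plin1* and *Cidec*. *Plin5* rose by 0.86 (SE 0.19, adjusted p 0.0090) in sgRNA cells and had a blocked value of 0.42 (SE 0.21, adjusted p 0.241) in empty vector cells. The difference between these responses is given by the interaction.

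**Figure D2:**
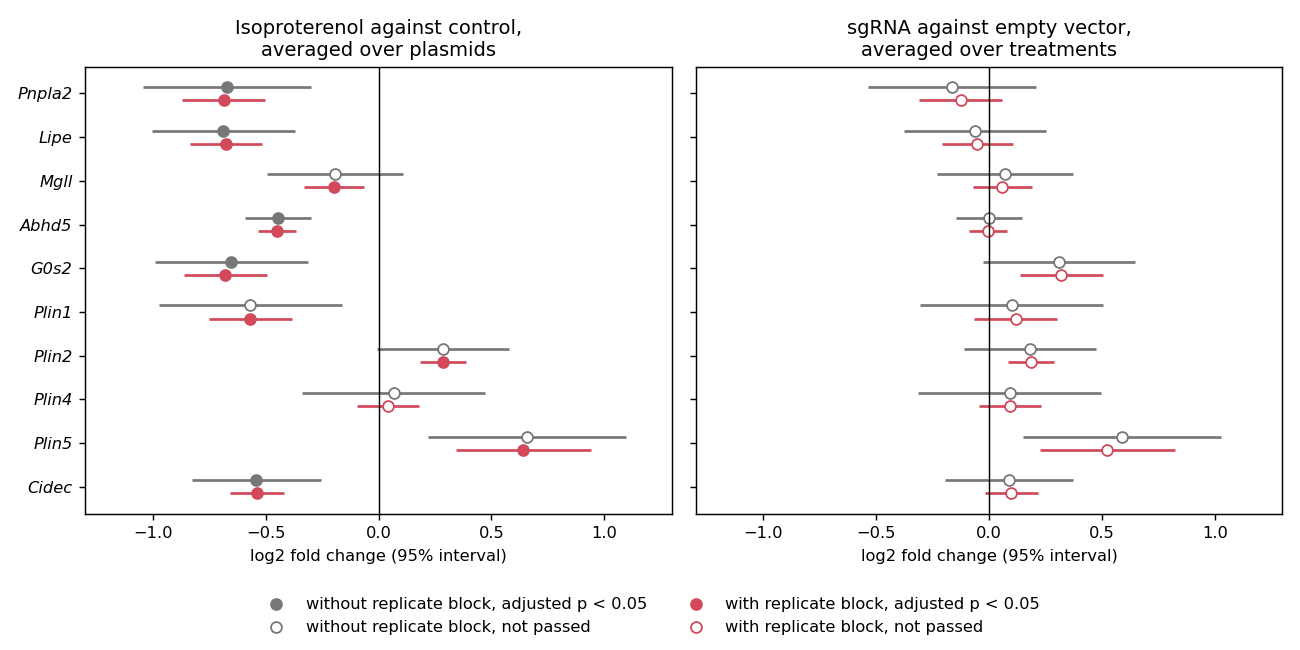
Log2 fold change of each of the 10 genes (points) with its 95% interval (lines), for isoproterenol on the left and for the *Gm15551* sgRNA on the right, without (grey) and with (red) the replicate block. Filled points passed at an adjusted p under 0.05. On the left 5 grey and 9 red points are filled, and on the right none is.

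Activation of *Gm15551*, to the low levels given above, was compared with the empty vector to ask whether it alters these genes. Averaged over treatments, 0 of 10 members passed in edgeR without the block and 0 with it, where 0% and 0.586% of all genes passed. At an unadjusted p under 0.05 there was 1 member without the block and 3 with it, where 437 and 1506 of 13150 genes were. DESeq2 called 0 members and 12 of 34821 genes, with 1 member and 571 genes at an unadjusted p under 0.05. The estimates use the same 16 libraries as the isoproterenol effect. The largest was that of *Plin5*, at 0.59 on the log2 scale (95% interval 0.15 to 1.03, adjusted p 1.00) without and 0.52 (0.23 to 0.82, adjusted p 0.137) with the block. Of its 8 pairs, 7 were higher. *G0s2* had 0.31 (−0.029 to 0.65) and with the block 0.32 (0.14 to 0.50, adjusted p 0.143), with 7 of 8 pairs higher. *Plin2* had 0.18 (−0.11 to 0.47) and with the block 0.19 (0.084 to 0.29, adjusted p 0.116), with 8 of 8 pairs higher, by ratios of 1.02 to 1.22. The ribosomal RNA share, lower in sgRNA libraries, moved with these differences. For cell type markers, the sgRNA estimate was above 0 for 9 of 9 adipocyte and 8 of 8 brown markers tested, of which 0 passed without the block. With the block the adipocyte marker *Cfd* rose by 0.42 (SE 0.083, adjusted p 0.0348) and the preadipocyte marker *Ly6a* fell by 0.74 (SE 0.11, adjusted p 0.0049). Of 6 preadipocyte markers tested, 4 had blocked estimates below 0 and 2 above 0. The part of these in the members' values was not tested.

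The other members lay closer to 0. For *Abhd5*, the most precise, the blocked 95% interval of the sgRNA effect ran from −0.088 to 0.081 on the log2 scale. For *Lipe* it ran from −0.21 to 0.11, for *Pnpla2* from −0.31 to 0.057, for *Cidec* from −0.020 to 0.22, for *Plin1* from −0.066 to 0.30, for *Mgll* from −0.072 to 0.19 and for *Plin4* from −0.045 to 0.23. Within control cells 0 members passed in either fit of edgeR (0% and 0.0380% of all genes), with 0 and 1 members and 194 and 754 of 13150 genes at an unadjusted p under 0.05. Within stimulated cells 0 passed in either fit (0% and 0.137% of all genes), with 1 and 3 members and 196 and 958 genes at an unadjusted p under 0.05. DESeq2 also called 0 members in both, and 2 of 34821 genes in each.

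Whether the isoproterenol response differed between the plasmids was tested by the interaction. It passed for 0 members and for 0% of all genes in both fits of edgeR, with 0 members at an unadjusted p under 0.05, also in DESeq2. Of all genes, 52 were at an unadjusted p under 0.05 without the block, 199 with it and 115 in DESeq2. The largest estimate was that of *Plin5*, 0.44 without the block (95% interval −0.44 to 1.31) and 0.45 with it (−0.15 to 1.05). With libraries or a replicate number left out, the *Plin5* estimate ran from 0.11 to 0.61. The narrowest blocked intervals were those of *Abhd5* (−0.063 to 0.27), *Plin2* (−0.21 to 0.20) and *Cidec* (−0.11 to 0.37). A missed threshold does not show that the responses were alike.

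Ratios of counts within 1 library do not depend on scaling. The ratio of *Plin2* to *Plin1* was 2.97 ± 0.808 (SD, n = 4) in empty_ctrl and 5.61 ± 1.79 in empty_iso, and 3.13 ± 0.621 in sgRNA_ctrl and 5.54 ± 1.09 in sgRNA_iso. Under isoproterenol it was 1.49 to 2.63 times as high, and that of *Plin2* to *Cidec* 1.58 to 2.06 times. The direction of both in 8 of 8 pairs follows from the directions of the members given above, so that the sizes alone are added here. *Abhd5* to *Pnpla2*, activator to lipase, was higher in 8 of 8 pairs by 1.05 to 1.36 times. *G0s2* to *Pnpla2*, inhibitor to lipase, was higher in 3 and lower in 5 pairs under isoproterenol, and higher with the sgRNA in 7 of 8 pairs, with ratios of 0.946 to 1.91. *Lipe* to *Pnpla2* was higher in 5 and lower in 3 pairs under isoproterenol.

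**Figure D3:**
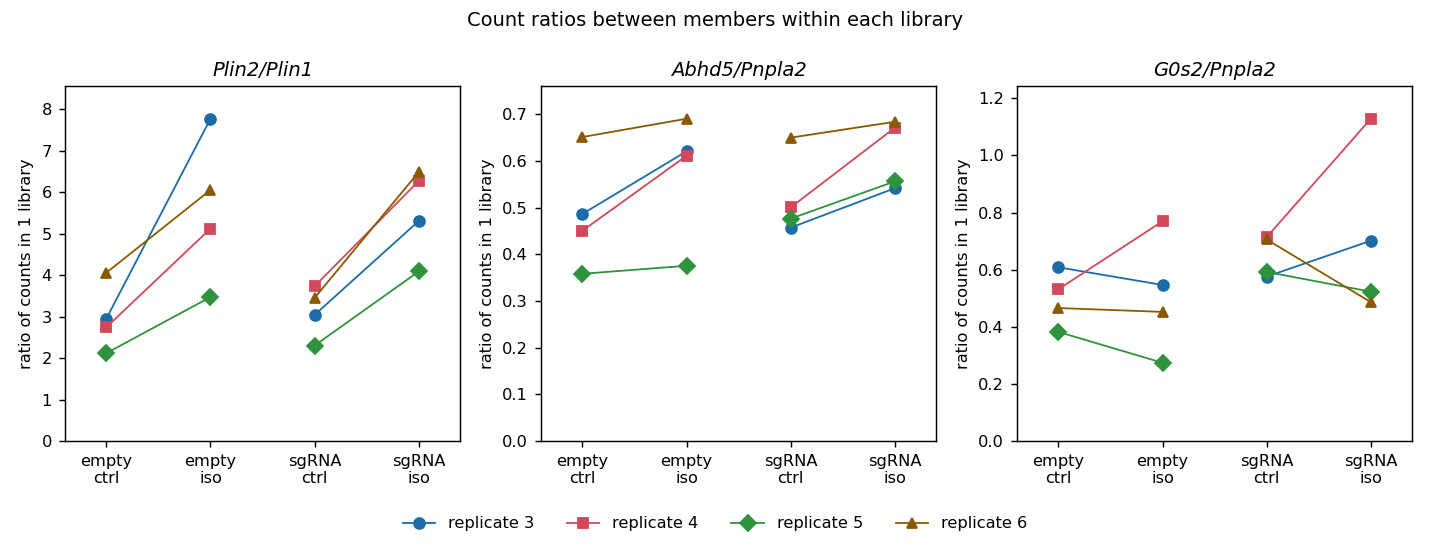
Ratio of the counts of 2 members in the same library (linear axes from 0), by group, with libraries of the same plasmid and replicate number joined. *Plin2* to *Plin1* and *Abhd5* to *Pnpla2* run up from control to isoproterenol in all 8 pairs, whereas *G0s2* to *Pnpla2* runs up in 3 and down in 5.

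Much of the spread between replicates followed the replicate number. Replicate 6 was the lowest of the 4 libraries in all 4 groups for *Lipe*, *G0s2*, *Plin1* and *Plin2*, and replicate 5 was the highest in all 4 groups for *Mgll*, *Abhd5* and *Plin4*. For *Plin1* the mean deviation of replicate 6 from the group means was −0.59 on the log2 scale, as large as its isoproterenol effect. For *Plin2* the deviations were 0.23 and 0.25 in replicates 3 and 4 and −0.16 and −0.32 in replicates 5 and 6, while for *Plin4* they were −0.36 and −0.31 against 0.48 and 0.20. The members therefore did not share 1 order of replicates.

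Per kb of exon, the members spanned more than 2 orders of magnitude. In empty_ctrl the order of mean CPM per kb of exon was *Cidec* (722), *G0s2* (443), *Plin2* (280.0), *Pnpla2* (263), *Lipe* (107), *Plin1* (75.1), *Abhd5* (61.4), *Plin4* (39.8), *Mgll* (20.9) and *Plin5* (1.64). The ranges of neighbours overlapped between *G0s2* and *Plin2*, *Plin2* and *Pnpla2*, *Lipe* and *Plin1*, and *Plin1* and *Abhd5*. In empty_iso *Plin2* was second with 341 CPM per kb of exon, after *Cidec* with 471, and *G0s2* followed with 259. With the length of the longest coding transcript in place of all exons, *Plin2* came before *G0s2* in all groups and before *Cidec* in both stimulated groups, so the order of these 3 genes depends on the length used.

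**Figure D4:**
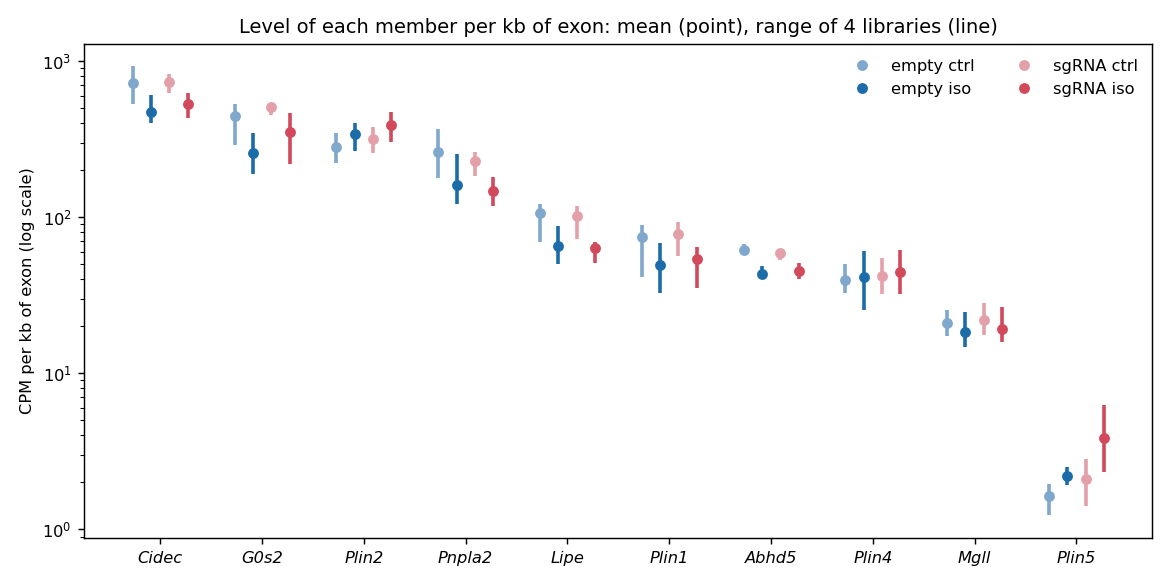
Mean CPM per kb of exon (points, log axis) with the range of the 4 libraries (lines) for each gene and group, ordered by the level in empty_ctrl. *Cidec* is highest and *Plin5* lowest in all 4 groups, and *Plin2* is the gene among the upper 4 whose stimulated points lie above its control points.

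The 250 bases before the RefSeq start of each member (GRCm38.p6) were searched for 4 motifs on both strands. All 10 members had an entry. The cAMP response element TGACGTCA was in 1.55% of 32851 such windows and in 0 members. Its shorter form TGACG, which the full element contains, was in 17.8% of windows and in 2 members, *Abhd5* (128 bases before the start) and *G0s2* (246 bases before, as its reverse complement). An exact form of the PPAR element, AGGTCA repeated after 1 base, was in 0.0335% of windows and in 0 members. At so low a share, its absence from 10 windows does not tell whether these genes have PPAR sites. CCAAT was in 33.8% of windows and in 3 members, *Plin2*, *Plin4* and *Plin5*. The numbers of members with TGACG or CCAAT were near the shares of all windows. Below are the bases from 250 to 51 before the start of the 2 members that fell and hold TGACG, and of the 2 that rose with the block and hold CCAAT. *Plin4*, which holds CCAAT and passed in neither fit, is not printed. The capitals mark these motifs or their reverse complement. The positions are chr9:122351366-122351565 (plus strand) for *Abhd5*, chr1:193273239-193273438 (minus strand) for *G0s2*, chr4:86670110-86670309 (minus strand) for *Plin2* and chr17:56117599-56117798 (minus strand) for *Plin5*.
Abhd5: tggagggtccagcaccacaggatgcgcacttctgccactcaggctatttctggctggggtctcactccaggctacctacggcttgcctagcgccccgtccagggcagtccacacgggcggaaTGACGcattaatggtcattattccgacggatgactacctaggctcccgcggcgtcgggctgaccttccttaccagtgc
G0s2: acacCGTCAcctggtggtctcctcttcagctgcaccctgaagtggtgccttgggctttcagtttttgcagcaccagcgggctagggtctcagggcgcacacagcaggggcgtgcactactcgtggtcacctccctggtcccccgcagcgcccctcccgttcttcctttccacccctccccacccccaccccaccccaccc
Plin2: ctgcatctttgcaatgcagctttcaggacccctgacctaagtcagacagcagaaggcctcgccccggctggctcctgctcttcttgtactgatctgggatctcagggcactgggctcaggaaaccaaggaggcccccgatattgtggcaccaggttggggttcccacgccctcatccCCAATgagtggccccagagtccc
Plin5: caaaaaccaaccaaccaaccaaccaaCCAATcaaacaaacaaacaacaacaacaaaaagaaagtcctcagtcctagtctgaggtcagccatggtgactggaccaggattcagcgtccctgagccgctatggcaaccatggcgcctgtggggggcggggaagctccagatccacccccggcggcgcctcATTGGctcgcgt

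A match describes these letters only.

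Among 21 other genes of droplets and neutral lipid hydrolysis, 20 were tested. Of these 3 rose and 1 fell under isoproterenol without the block, and 5 rose and 6 fell with it, where 2.06% and 2.43% of all genes did so without the block and 10.9% and 10.4% with it. The median log2 fold change was −0.062. *Hilpda*, which encodes another inhibitor of ATGL, rose from 32.9 ± 15.5 to 70.3 ± 34.7 CPM in empty vector and from 34.6 ± 10.1 to 71.5 ± 19.0 CPM in sgRNA cells (log2 fold change 1.07, SE 0.28, edgeR adjusted p 0.0377). *Lipa*, the acid lipase of lysosomes, rose by 0.74 (SE 0.078, adjusted p 2.86e-05), and *Cideb*, a relative of *Cidec* named only because it completes the 3, rose by 0.71 (SE 0.19, adjusted p 0.0484). *Aqp7*, the channel through which adipocytes release glycerol, fell by 0.74 (SE 0.18, adjusted p 0.0249).

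With the block 7 more genes passed. *Cidea*, the droplet protein typical of brown fat, had an unblocked log2 fold change of 1.19 (SE 0.44, adjusted p 0.155). Blocked, it rose by 1.20 (SE 0.21, adjusted p 0.00075). *Ces1d*, a carboxylesterase with triglyceride hydrolase activity, had −0.87 (SE 0.25, adjusted p 0.0625) and −0.85 (SE 0.13, adjusted p 0.00017). *Pnpla3*, a relative of *Pnpla2*, had −0.86 (adjusted p 0.563) and −0.98 (adjusted p 0.0374) at 0 to 55 counts per library. The other 4, named after their values were seen to complete this count, changed less. *Fitm2* (−0.39, adjusted p 0.00087) and *Bscl2* (−0.27, adjusted p 0.0056), both needed to form droplets, and *Dgat1* (−0.26, adjusted p 0.0092), which makes triglyceride, fell, and *Rab18* (0.18, adjusted p 0.0173), a droplet GTPase, rose. For the sgRNA effect 0 of the 20 passed without the block and 1 with it, *Cidea* (1.05, SE 0.21, adjusted p 0.0348). Of all genes, 0% and 0.586% passed in these fits.

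Of 17 genes that carry the signal to start or stop lipolysis, 15 were tested, while the β-adrenergic receptor genes *Adrb1* (2 to 9 counts) and *Adrb3* (0 to 11 counts) were below the filter. Without the block 1 rose and 1 fell (2.06% and 2.43% of all genes). *Pde4d*, a phosphodiesterase that degrades cAMP, rose from 17.9 ± 4.29 to 47.4 ± 8.21 CPM in empty vector and from 22.1 ± 1.81 to 54.0 ± 13.4 CPM in sgRNA cells (log2 fold change 1.35, SE 0.13, edgeR adjusted p 1.38e-05). *Adora1*, a receptor that restrains lipolysis, fell by 1.13 (SE 0.19, adjusted p 0.0022). With the block 2 rose and 5 fell, where 10.9% and 10.4% of all genes did, so that the number that rose was near the background. *Prkar1a*, a regulatory subunit of protein kinase A, then rose by 0.23 (SE 0.052, adjusted p 0.0056), and *Prkaca*, its catalytic subunit, fell by 0.23 (SE 0.056, adjusted p 0.0080). *Insr*, the insulin receptor, fell by 0.27 (adjusted p 0.0225) and *Hcar2*, an antilipolytic receptor, fell by 0.23 (adjusted p 0.0206). For the sgRNA effect 0 of 15 passed in either fit, where 0% of all genes did without the block and 0.586% with it.

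Marker lists were set beside the isoproterenol effect. All 9 adipocyte markers tested had estimates below 0 for isoproterenol, of which 3 passed without and 7 with the block, against 2.43% and 10.4% of all genes called lower. The 3 were *Cfd* (−1.48, SE 0.29, edgeR adjusted p 0.0076), *Adipoq* (−1.06, SE 0.18, adjusted p 0.0022) and *Retn* (−0.58, SE 0.12, adjusted p 0.0079), which encode proteins that adipocytes secrete. The adipocyte list, mostly *Fabp4*, summed to 16870 to 27079 CPM in empty_ctrl, 12779 to 22633 in empty_iso, 20358 to 25725 in sgRNA_ctrl and 13754 to 24190 in sgRNA_iso. *Pparg*, which encodes the factor that maintains the adipocyte state, had −0.058 (95% interval −0.21 to 0.090, edgeR adjusted p 0.743). Of 8 brown markers tested, 5 had estimates above 0, and 2 rose and 1 fell without the block (3 and 1 with it), where 2.06% and 2.43% of all genes did (10.9% and 10.4% with it). *Ucp1* rose by 4.03 (SE 0.37, adjusted p 7.36e-06) and *Ppargc1a*, a coactivator of mitochondrial genes, by 0.71 (SE 0.15, adjusted p 0.0128), while *Ebf2* fell by 0.48 (SE 0.10, adjusted p 0.0109). The brown list, mostly *Elovl3*, summed to 219.9 to 438 CPM in empty_ctrl, 264 to 489 in empty_iso, 249.6 to 456 in sgRNA_ctrl and 348 to 593 in sgRNA_iso. The preadipocyte markers summed to 33.5 to 129.9 CPM in empty_ctrl, 43.9 to 154 in empty_iso, 32.1 to 97.8 in sgRNA_ctrl and 40.3 to 130.1 in sgRNA_iso, with 0 of 6 tested passing without the block. With the block 1 passed, *Ly6a*, which rose by 1.09 (SE 0.11, adjusted p 4.92e-06), with mean levels of 26.0 and 49.3 CPM in empty_ctrl and empty_iso and of 14.9 and 30.7 CPM in sgRNA_ctrl and sgRNA_iso. Of the 6 preadipocyte markers, 3 had blocked estimates above 0 and 3 below 0, with a median of 0.018. Without the block 4 were above 0 and 2 below 0. *Cd68* rose by 0.91 (SE 0.17, adjusted p 0.0052). The part of cell composition in the members' changes was not tested.

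For 5 members the 3 genes whose log2 CPM followed theirs most closely over the 16 libraries were taken, among 7925 genes with a mean of at least 10 CPM. Libraries share groups and replicate numbers, so these r values describe these libraries only. For *Pnpla2* they were *Reep6* (r = 0.979), *Fgfr1* (0.977) and *Slc1a5* (0.975), and for *Cidec* *Mtarc2* (0.973), *Hadh* (0.973) and *Fcgrt* (0.971). *G0s2* was followed by *Chchd6* (0.967), *Cdkn2c* (0.964) and *Ndufv3* (0.948), and *Plin2* by *Eif3c* (0.961), *Rwdd4a* (0.948) and *Tma16* (0.948). The closest to *Plin5* were *Ccnl1* (0.890), *Pspc1* (0.869) and *Pdk4* (0.862), less close than for the other 4 members.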

How the data were processed

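Polyadenylated RNA of 16 cultures was sequenced in paired ends. The authors trimmed reads with cutadapt, quantified them with salmon against the GENCODE M22 transcriptome (GRCm38) and deposited estimated counts per gene as whole numbers for 54347 genes; versions and strand use are not given in the sources used here. Salmon divides reads that fit several transcripts, so overlapping genes and relatives are less certain. Groups and replicate numbers came from the sample titles.

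Counts were tested in R 4.3.3 with edgeR 4.0.16 (filterByExpr with a minimum count of 10 and total of 15, TMM, glmQLFit on 4 group means over all 16 libraries, glmQLFTest), two-sided, and p was adjusted by Benjamini-Hochberg across the 13150 genes that were kept. Passing means an adjusted p under 0.05. The study names no block for its RNA-seq test, so the replicate block was an alternative. Deviations from group means correlated at 0.22 to 0.61 between libraries of the same number in the titles (24 pairs, median 0.41) and at −0.51 to 0.52 between those of different number and group (72 pairs, median −0.21). Every pair of the same number was above 0.1, so the numbers were taken to pair libraries, and blocked values stand beside results they change. With the block the median biological coefficient of variation went from 18.0% to 9.96%. Other alternatives were DESeq2 1.42.0, its size factors, no filter, a log2 fold change bound of 0.5, removal of *CT010467.1*, and leaving out libraries. The 34821 genes given for DESeq2 are all those with any count. They include genes that its own filtering can leave without an adjusted p, so its shares are not like those of edgeR. Only the edgeR code was tested on simulated counts, with conditions to pass set for the blocked fit alone.

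The members and lists were chosen with earlier results of these data known. Named genes are the members, up to 6 genes of each pathway list that passed in either fit, by size of effect, genes not measured, and the 3 genes most alike to 5 members. Outside this rule, *Cideb*, *Fitm2*, *Bscl2*, *Dgat1*, *Rab18*, single markers and the genes of the last section were named after their values were seen. Coordinates, lengths and overlaps came from GENCODE M21 (GRCm38), and promoter windows from RefSeq.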

Additional observations from a re-analysis of the deposited data

Results flagged for a closer look

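In 40 tests, 1 for each member and group of 4 libraries, 3 gene values, from 2 libraries, stood far from the others of their group by Dixon's test at its 95% critical value, where chance gives about 1 in 20. *Pnpla2* was at 766 CPM in empty_iso replicate 5, against 366 to 409 CPM in the other 3 libraries. *Lipe* was at 409 CPM in empty_ctrl replicate 6, against 692 to 710.3 CPM. *Plin1* was at 193 CPM in the same library, against 384 to 412 CPM.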

How the results depend on the processing

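The members passing for isoproterenol averaged over plasmids numbered 5, and 9 with the replicate block, which uses the pairing. They numbered 6 in DESeq2 (with *Plin5*), 6 without the low-count filter (with *Plin1*), 5 with DESeq2's size factors, 5 without *CT010467.1* and 4 with the fold change bound. Over all genes the calls were 590 of 13150, 2799 with the block, 942 of 34821 in DESeq2, 563 of 34821 without the filter, 594 with DESeq2's size factors, 587 without *CT010467.1* and 349 with the bound. Leaving out libraries or replicate numbers gave 0 to 6 members without the block, and leaving out a replicate number with it gave 7 without replicate 4 and 8 otherwise. Over all genes these fits called from 137 of 13336 to 864 of 13448 without the block. With it they called 1782, 1915, 2120 and 1996 genes without replicates 3, 4, 5 and 6. In empty vector cells the 1 became 7 with the replicate block, 2 in DESeq2 and 0 without the low-count filter (0 to 3 with libraries left out, 6 or 7 when also blocked). Over all genes the 120 became 1259, 275 of 34821 and 154 of 34821 (35 to 203 with libraries left out, 589 to 916 when also blocked). In sgRNA cells the 0 became 8 with the block and 1 in DESeq2 (0 with libraries left out, and 8, 6, 5 and 5 when blocked and without replicates 3, 4, 5 and 6). Over all genes the 95 became 1105 and 222 of 34821 (29 to 105 with libraries left out, and 752, 588, 665 and 524 when blocked). The 4 other droplet genes became 11 with the block (1 to 5 with libraries left out, 7, 7, 9 and 8 when blocked) and the 2 signal genes 7 (1 to 3, and 4, 4, 6 and 4). Over all genes the 590 became 2799 in these fits (137 to 864 with libraries left out, and 1782, 1915, 2120 and 1996 when blocked). The counts of 0 members for the sgRNA effect and the interaction did not change under the alternatives run. The cause of these shifts was not tested. The blocked fits without 1 replicate number were added after seeing the data.

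Directions changed only for estimates of the sgRNA effect, the interaction and *Plin4*. The sgRNA effect on *Abhd5* was 0.0063 in DESeq2, 0.0039 with DESeq2's size factors, 0.027 without the filter and 0.0035 without *CT010467.1*. The interaction of *Plin2* was −0.0063 with the block and −0.0012, −0.0049 and −0.0096 in DESeq2, with its size factors and without *CT010467.1*, and that of *Plin4* was −0.0012 without the filter and −0.00092 without *CT010467.1*. With libraries left out, the isoproterenol effect on *Plin4* ran from −0.055 to 0.15. The sgRNA effect ran from −0.27 to 0.0080 for *Pnpla2*, −0.14 to 0.024 for *Lipe*, −0.019 to 0.16 for *Mgll*, −0.027 to 0.033 for *Abhd5*, −0.00047 to 0.20 for *Plin1* and −0.00015 to 0.21 for *Plin4*. The interaction ran from −0.12 to 0.40 for *Pnpla2*, −0.11 to 0.20 for *Lipe*, −0.21 to 0.17 for *Mgll*, −0.10 to 0.28 for *Plin1*, −0.12 to 0.11 for *Plin2* and −0.19 to 0.25 for *Plin4*. In blocked fits, the sign also changed without replicate 5 for the isoproterenol effect on *Plin4* (−0.016) and the sgRNA effect on *Pnpla2* (0.0030), *Lipe* (0.022) and *Abhd5* (0.0020, and 0.033 without replicate 4). It changed for the interaction of *Lipe* (−0.051), *Plin1* (−0.13), *Plin2* (−0.031) and *Plin4* (−0.097) without replicate 3, of *Plin2* without replicates 4 and 6 (−0.022 and −0.011) and of *Mgll* without replicate 6 (0.081). Depth limits *Plin5* most, at 27 to 163 counts.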

Other observations

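A further 9 genes of the droplet list, chosen after their values were seen, passed in neither fit for isoproterenol. They encode the perilipin *Plin3*, other proteins found on droplets (*Aup1*, *Faf2*, *Ldah*, *Hsd17b11*), the lipases *Abhd6*, *Pnpla6* and *Ces1f*, and *Dgat2*, which makes triglyceride. *Plin3* had a log2 fold change of −0.16 with the block (SE 0.074, edgeR adjusted p 0.156), *Dgat2* of −0.14 (SE 0.059, adjusted p 0.103) and *Hsd17b11* of −0.041 (SE 0.061, adjusted p 0.688).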
